A study of Mus musculus with 10 samples.

Results

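The phosphorylation of serine 2 in the C-terminal repeat of RNA polymerase II (Pol II S2P) marks polymerase that has left the promoter and is elongating. Its occupancy at single peaks was compared between muscle stem cells (MuSCs) with and without Kmt5b, the methyltransferase that converts monomethylated to dimethylated lysine 20 of histone H4. The profile holds 50698 autosomal peaks out of 51322 Pol II S2P peaks, and out of 96247 peaks in the series together with those of H4K20me1. The 620 peaks on X and 4 on Y were left out, since the study also set the sex chromosomes aside. The values came from 4 CUT&RUN libraries, an assay in which an antibody directs a nuclease to its target and the released DNA is sequenced. Ctrl MuSCs carried the Pax7CreERT allele with wild-type Suv4-20h1 (an older name of Kmt5b), and sKO MuSCs carried Pax7CreERT with Suv4-20h1 knocked out, so that both genotypes shared the Cre allele and the deletion depended on Cre expressed from Pax7 and induced with tamoxifen. The cells were grown in vitro before the assay. The labels give 2 libraries per genotype. The study calls them biological replicates, but neither source ties them to separate animals, and the p-values measure the spread between these libraries. In such bulk profiles, a large change in some cells and a small change in all cells cannot be told apart.

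Elongating polymerase enters the gene body after the release of a pause near the start, and is phosphorylated on serine 2 increasingly towards the gene end. Past the cleavage and polyadenylation site it goes on transcribing for some distance before it is released from DNA, so that a tail of Pol II S2P past the end is a normal feature of active genes. H4K20me1, the substrate of Kmt5b, is found over the bodies of many transcribed genes. Satellite cells are the stem cells of skeletal muscle and multiply as myoblasts in culture, where the myogenic factor Myod1 is active.

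In sKO, Pol II S2P was relatively higher past the ends of genes and relatively lower at gene starts. The change at gene starts was close to that in gene bodies of equal GC content, whose part was not tested. Among tested peaks with no listed gene, those lying 5 to 10 kb past the nearest protein-coding gene end had a median log2 fold change of 0.33 (sKO over Ctrl, 583 peaks) and 16.3% of them were called higher, whereas those 5 to 10 kb before the nearest gene start had a median of -0.04 (272 peaks) and 2.94% were called higher. The replication-dependent histone genes, Pcna, Rrm2, Myod1 and peaks inside the muscle cadherin gene Cdh15 were on the lower side.

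The following sequences of 200 bases, read from GRCm38 and free of annotated exons, lie at the centres of peaks called higher or called lower. The first set shows 2 peaks past gene ends that were widely separated between genotypes and whose centre holds a CpG, marked in capitals. CpG was sparse in the peaks called higher (median 2 per 300 bases, against 5 in the peaks called lower and 4 in the others).

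Peak past Insl6 (chr19:29317750-29317949, + strand): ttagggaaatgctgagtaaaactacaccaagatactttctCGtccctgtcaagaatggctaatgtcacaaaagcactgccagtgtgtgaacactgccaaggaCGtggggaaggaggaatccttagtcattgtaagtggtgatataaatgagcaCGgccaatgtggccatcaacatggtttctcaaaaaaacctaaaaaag
Peak past Olfr1373 (chr11:52136159-52136358, + strand): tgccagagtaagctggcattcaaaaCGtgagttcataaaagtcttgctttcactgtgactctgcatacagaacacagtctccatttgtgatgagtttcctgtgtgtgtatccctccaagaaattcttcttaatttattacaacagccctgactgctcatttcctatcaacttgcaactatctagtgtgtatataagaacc

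The second set shows widely separated intronic peaks called lower whose centre holds CAGCTG, an E-box of the kind bound by MYOD1, in capitals. The peak of Slc35e1 also lies 8225 bases past the end of Med26.

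Intronic peak of Ago2 (chr15:73132066-73132265, + strand): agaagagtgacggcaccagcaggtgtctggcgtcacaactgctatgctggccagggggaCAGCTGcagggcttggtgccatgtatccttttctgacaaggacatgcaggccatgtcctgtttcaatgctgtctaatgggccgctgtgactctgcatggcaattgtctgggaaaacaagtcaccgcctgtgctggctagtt
Intronic peak of Slc35e1 (chr8:72485932-72486131, + strand): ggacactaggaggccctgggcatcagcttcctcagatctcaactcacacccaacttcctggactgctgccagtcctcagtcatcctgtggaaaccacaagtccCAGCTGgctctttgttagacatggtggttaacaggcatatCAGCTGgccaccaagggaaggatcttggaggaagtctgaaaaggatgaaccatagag
Intronic peak of Ptprd (chr4:76766894-76767093, + strand): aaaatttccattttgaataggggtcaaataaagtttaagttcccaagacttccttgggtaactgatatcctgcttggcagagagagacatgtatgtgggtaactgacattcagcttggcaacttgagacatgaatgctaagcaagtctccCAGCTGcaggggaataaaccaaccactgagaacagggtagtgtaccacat

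These peaks are examples chosen for the motif. The letters CAGCTG (identical on both strands) occurred in the central 300 bases of 44.4% of the 180 peaks called lower in gene bodies or with no listed gene, in 15.2% of the 486 such peaks called higher and in 31.7% of all 16372 such peaks. The AP-1 letters TGANTCA occurred in 17.8%, 16.0% and 27.1%, and the GC box GGGCGG on either strand in 13.3%, 3.70% and 10.7%. The motif letters moved with base composition, since the median GC content was 44.9% in peaks called higher, 52.2% in peaks called lower and 49.7% in the others, and the part of base composition in these shares was not tested. A match shows only that the letters are present.

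The third set gives the 250 bases before the start of Hist1h3c and Hist1h3b (RefSeq, GRCm38.p6). Both are histone H3 genes with a peak called lower within 1000 bases of the start. A further such gene, Hist1h3d, is not printed. CCAAT and TATAAA, on either strand, are in capitals. The called peak of Hist1h3b covers the bases printed, whereas that of Hist1h3c lies downstream of them.

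Before Hist1h3c (chr13:23745522-23745771, - strand): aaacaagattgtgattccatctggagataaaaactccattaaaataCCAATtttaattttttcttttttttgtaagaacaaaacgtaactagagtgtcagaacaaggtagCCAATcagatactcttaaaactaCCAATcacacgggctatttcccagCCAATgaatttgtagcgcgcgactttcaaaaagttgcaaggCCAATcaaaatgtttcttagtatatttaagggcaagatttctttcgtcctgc
Before Hist1h3b (chr13:23752095-23752344, + strand): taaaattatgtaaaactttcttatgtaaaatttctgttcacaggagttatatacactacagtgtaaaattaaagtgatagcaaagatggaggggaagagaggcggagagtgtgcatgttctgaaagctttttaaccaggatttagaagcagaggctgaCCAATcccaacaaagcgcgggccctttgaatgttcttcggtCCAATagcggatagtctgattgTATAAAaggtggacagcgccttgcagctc

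Of 10 histone genes with a peak called lower within 1000 bases of the start, 9 were matched to a RefSeq promoter. At Hist1h3c and Hist1h2bg the called peak did not cover the promoter bases. CCAAT was present in the 250 bases before 8 of these 9 and TATAAA before 6, against 33.8% and 12.4% of 32851 promoters.

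A score in the deposited table is coverage normalised by spike-in and summed over a peak, not a read count, so that no counting interval is given. The autosomal totals ran from 3224367 to 4836482 over the 4 libraries. Each library was therefore divided by its own total and multiplied by the mean total of 3915812, and all scores below are on this scaled score. A difference on this scale is a difference in the share of a library and says nothing on the absolute amount of Pol II S2P. By mean total, the deposited scale was 1.11 times higher in sKO, but the totals of the genotypes overlapped. The total of sKO replicate 2 (3401198) was below that of Ctrl replicate 2 (4201202). The highest total was that of sKO replicate 1 and the lowest that of Ctrl replicate 1. A peak was tested if its mean scaled score was over 50, which 22340 of the 50698 peaks were. Spearman's rank correlation over the tested peaks was 0.87 between the Ctrl libraries, 0.85 between the sKO libraries and 0.78 to 0.85 across genotypes.

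Of the peaks tested, 556 were called higher in sKO (2.49% of those tested) and 267 lower (1.2%), together 3.68%. A call required an adjusted p (limma, Benjamini-Hochberg) below 0.1 together with a change of more than 0.5 on the log2 scale. The plot of change against level shows both sets over the whole range of scores. The median log2 fold change over all tested peaks was -0.03, with quartiles of -0.24 and 0.21. The genotypes did not overlap at 4569 peaks with higher sKO scores (20.5%) and at 5369 with lower ones (24.0%). The peaks nearest the limit had an adjusted p of 0.09996 inside and 0.1004 outside on the higher side. The counts depended on the settings: with no mean-variance trend 3 and 0 peaks were called while 2691 had an unadjusted p under 0.05 (3288 with the trend), without Ctrl replicate 1 173 and 16, without sKO replicate 1 128 and 111, and on the deposited scale 10 and 1. Without Ctrl replicate 2 the numbers were 763 and 426.

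**Figure D1:**
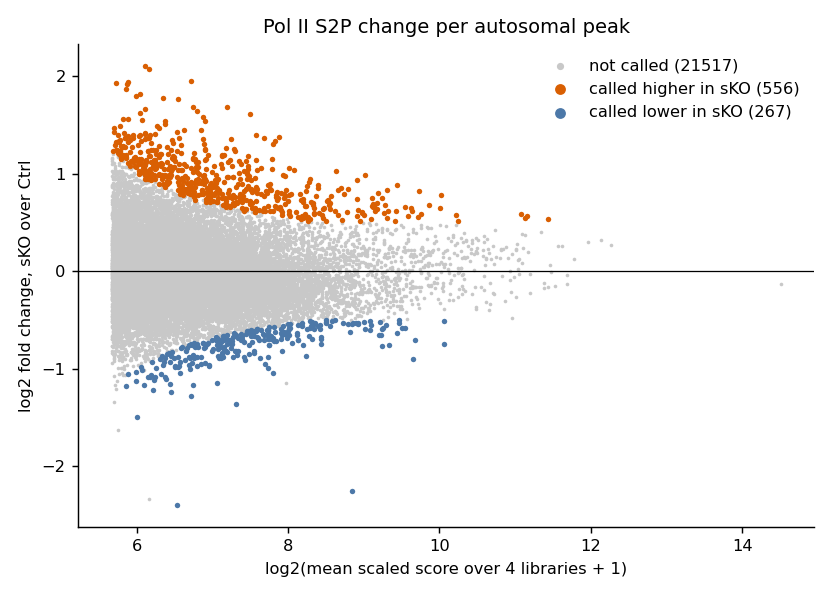
Each point is 1 of 22340 tested autosomal peaks, with log2 of its mean scaled score on the horizontal axis and the log2 fold change of sKO over Ctrl on the vertical axis. The 556 peaks called higher (orange) and 267 called lower (blue) are spread over the range of scores.

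One library stood apart at a small set of exonic peaks. Ctrl replicate 1 was over 4 times every other library at 9 tested peaks, 8 of them mostly in exons, in Fth1, Col1a1, Hspa5, Fn1, Eif5a, Ybx1 and S100a6, and the other libraries had 0 such peaks. The ferritin gene Fth1 scored 1705 in Ctrl replicate 1 and 28.0, 62.3 and 33.4 in the others at its largest peak, and 2 of its 3 calls rest on that library. In all, 8 called peaks overlapped between genotypes, 5 of them called lower.

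Position in the gene separated the peaks. Starts of protein-coding genes (within 1000 bases of the start) had a median log2 fold change of -0.13 over 4347 peaks, with 20 called higher (0.460%) and 59 lower (1.36%). Bodies had a median of -0.04 over 9973 peaks, with 180 higher (1.80%) and 128 lower (1.28%). Ends (within 1000 bases of the gene end) had a median of 0.04 over 1153 peaks, with 44 higher (3.82%) and 21 lower (1.82%). Peaks with no listed gene had a median of 0.06 over 5723 peaks, and they held 286 of the 556 peaks called higher, with 44 called lower (0.769% of the class). The order from start to end was thus one of rising medians, and the widest excess of higher over lower calls was in peaks with no listed gene.

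Peaks in lncRNA genes did not share this order. They had a median of -0.02 over 964 peaks, with 19 called higher (1.97%) and 13 lower (1.35%), and the medians were -0.05 at starts, -0.01 in bodies and -0.06 at ends. The 180 peaks of other gene types, such as pseudogenes, had a median of 0.01, with 7 higher (3.89%) and 2 lower (1.11%). Over all tested peaks the shares were 2.49% and 1.2%.

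The peaks with no listed gene were then divided by the nearest protein-coding gene in GENCODE M21, a division added after the values had been seen. Past the end the median log2 fold change was 0.08 at 0 to 1 kb (562 peaks), 0.08 at 1 to 2 kb (485), 0.21 at 2 to 5 kb (944), 0.33 at 5 to 10 kb (583), 0.17 at 10 to 20 kb (313) and -0.05 at 20 to 50 kb (319). The share called higher went from 3.20% in the first bin to 4.12%, 7.84%, 16.3% and 9.58%, and was 0.627% in the last. Before the start, the medians in the same bins were -0.05, 0.05, 0.09, -0.04, -0.06 and -0.08. The profile of change by position therefore had its highest point several kilobases past the gene end. The highest median before the start was 0.09, at 2 to 5 kb, close to the 0.08 at 0 to 1 and 1 to 2 kb past the end.

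**Figure D2:**
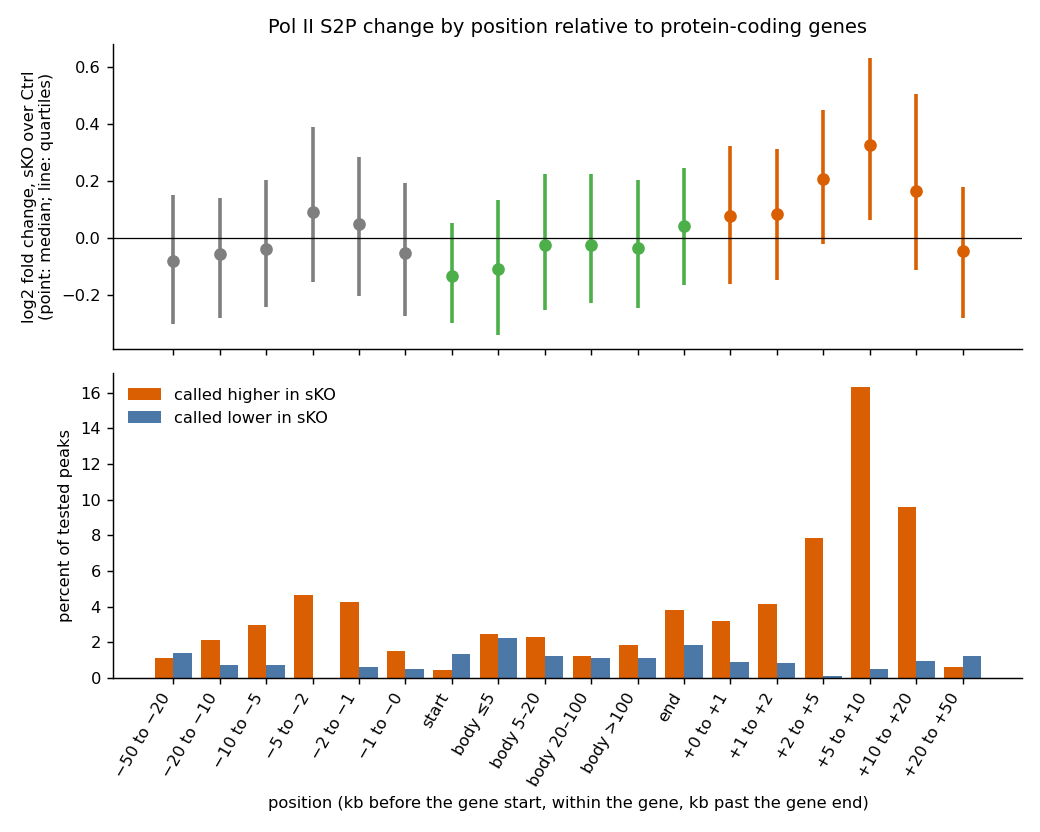
Top: median (point) and quartiles (line) of the log2 fold change, sKO over Ctrl, for tested peaks before gene starts (grey, kb), within protein-coding genes (green) and past gene ends (orange, kb). Bottom: percent of those peaks called higher (orange) or lower (blue). The median is highest, at 0.33, and 16.3% of peaks are called higher, 5 to 10 kb past gene ends.

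Within 10 kb, 207 of 2574 peaks past a gene end were called higher (8.04%) and 13 lower, against 34 and 5 of 1108 before a gene start (3.07% higher) and 45 and 26 of 2041 farther away (2.20% higher). Without Ctrl replicate 1 the 207 fell to 58, and without sKO replicate 1 to 48, on the deposited scale to 5 and with no trend to 2, while in the fits without 1 library the median of the peaks past ends was 0.14 to 0.21. Peaks past ends were also poorer in GC (median 46.0%) than those far away (48.1%) or before starts. Within bands of GC content the medians past ends, before starts and far away still differed: between 40 and 45% GC these were 0.27, 0.08 and 0.00, and between 50 and 55% they were 0.06, -0.01 and -0.08. With the GC trend removed, the median past ends was 0.14 and 152 peaks were called higher. The peaks past ends also held more soft-masked, repeat-like sequence in the reference (median 17.2%, against 10.8% before starts and 8.29% far away), and its part was not tested. Peaks in the body of one gene that lay within 10 kb past the end of another had a median of 0.08, with 106 of 2126 called higher (4.99%), against 1.10% of 7725 body peaks away from other genes. Together, 313 of the 486 peaks called higher in bodies or with no listed gene (64.4%) lay within 10 kb past the end of a protein-coding gene, where 28.7% of all such tested peaks lay. Libraries had no strand, so that the gene from which such signal came is given by position only.

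The shares of the library total gave 1 value per library. Peaks past gene ends held 11.1% and 11.7% of the autosomal score in Ctrl and 13.3% and 12.7% in sKO (11.4% ± 0.432 and 13.0% ± 0.422, mean ± SD, n = 2 each, 6199 peaks). Gene starts held 20.6% and 20.0% in Ctrl and 18.6% and 19.0% in sKO. For both classes the genotypes did not overlap, and the exact two-sided permutation p was 0.333, the smallest that 2 libraries against 2 allow. Gene bodies held 40.6% and 41.7% in Ctrl and 40.7% and 40.8% in sKO, and gene ends 9.33% and 8.88% against 9.52% and 9.32%, so that the genotypes overlapped (exact permutation p = 1 and 0.667). Peaks before starts (4.43% and 4.44% against 4.56% and 4.51%) differed by 0.101 percentage points, and those far from genes (7.44% and 7.24% against 7.20% and 7.40%) overlapped. LncRNA genes held 5.52% and 5.06% against 5.14% and 5.27%.

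**Figure D3:**
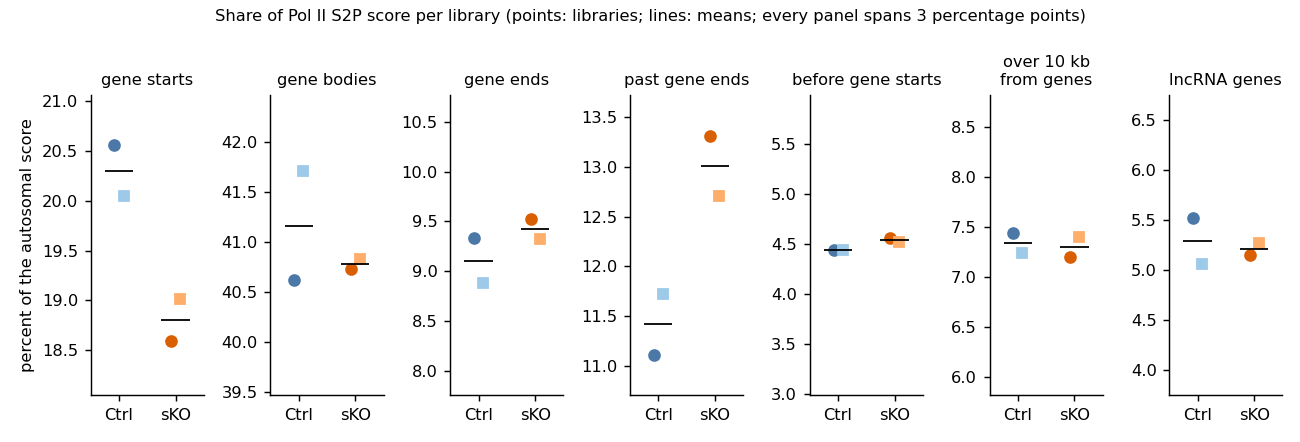
Percent of each library's autosomal Pol II S2P score in 7 classes of peaks, with 1 point per library, a line at each genotype's mean and a vertical range of 3 percentage points in every panel. Gene starts are lower in both sKO libraries and peaks past gene ends higher, while gene bodies, gene ends, lncRNA genes and far peaks overlap.

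The same comparison was made as a ratio within each gene. In 848 protein-coding genes with tested peaks past the end and in the body or at the end, the median log2 ratio of the past-end score to the gene's own score was -0.41 and -0.33 in Ctrl against -0.14 and -0.21 in sKO. The ratio was higher in sKO in 601 of these genes (70.9%). In 1314 genes with both a start and a body peak tested, the median log2 ratio of body to start score was 0.27 and 0.29 in Ctrl against 0.45 and 0.44 in sKO, and it was higher in sKO in 66.3% of genes. Both differences (0.20 and 0.16) were larger than those between replicates (at most 0.08), again with an exact permutation p of 0.333. Start peaks were richer in GC than body peaks, and the part of GC content in the body to start ratio was not tested.

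The genes with peaks called higher past their ends numbered 258, of which 47 had at least 2 such peaks. Those described here were picked from that set after their values had been seen. Past Ctsh, the gene of the lysosomal protease cathepsin H, all 5 tested peaks were called higher between 0.844 and 5.05 kb beyond the end, and their summed score was 256 and 254 in Ctrl against 700 and 563 in sKO. The strongest of them, chr9:90078325-90079002, scored 46.1 and 38.2 in Ctrl against 186 and 147 in sKO (log2 fold change 1.95 ± 0.27 SE, limma adjusted p = 2.4e-06). The sKO libraries were well above both Ctrl libraries at each of these.

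The first peak printed above, chr19:29317447-29318251, lay 3.09 kb past Insl6 and scored 35.2 and 36.4 in Ctrl against 128 and 122 in sKO (1.78 ± 0.31, limma adjusted p = 0.00013), the widest separation of genotypes among called peaks with no listed gene. The second, chr11:52135718-52136799, lay 7.79 kb past the olfactory receptor gene Olfr1373 by position, in an intron of Gm26551, and scored 92.3 and 83.9 against 300 and 244 (1.61 ± 0.21, limma adjusted p = 8.1e-07). The sKO scores were far above the Ctrl scores at both. Past Ankrd10, a peak at 8.48 kb scored 108 and 120 against 304 and 286 (1.36 ± 0.20, limma adjusted p = 4.3e-06). Past Nfkbia, which encodes the NF-κB inhibitor IκBα, a peak at 2.26 kb scored 36.4 and 29.8 against 82.6 and 87.5. The genotypes did not overlap at any of these peaks.

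In several of these genes the gene's own peaks did not move with those past the end. For Arih1, an E3 ubiquitin ligase gene, the summed score past the end was 369 and 463 in Ctrl against 710 and 579 in sKO, while its own tested peaks summed to 300 and 347 in Ctrl against 258 and 294 in sKO. For Prkar1a, a regulatory subunit of protein kinase A, the past-end sums were 361 and 362 against 543 and 547, and its own 165 and 129 against 122 and 131. For Actn1, the cytoskeletal alpha-actinin, they were 386 and 490 against 734 and 671, and its own 724 and 747 against 685 and 774. The past-end sums of the 3 genes were apart between genotypes, whereas the own sums of Prkar1a and Actn1 overlapped.

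Among the genes picked were also Hnrnpc and Hnrnpd. For Hnrnpc, which encodes a nuclear RNA-packaging protein, the past-end sums were 323 and 431 in Ctrl against 766 and 616 in sKO, and its own 1897 and 2015 against 2363 and 2262. For Hnrnpd they were 134 and 169 against 306 and 281 over 2 tested peaks that are listed with Vamp9. As a list, SR proteins and hnRNPs had a median of -0.03 over 111 tested peaks within the genes, with 0 called higher and 2 lower (Hnrnpa0 and Hnrnpf). The share called lower was 1.80%, against 1.2% lower and 2.49% higher over all tested peaks.

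Some peaks listed with one gene also lay past the end of another. Of the genes with most peaks called higher, Slc10a1, a bile acid transporter gene of the liver, had 5 called of 6 tested, and they lay 5.24 to 12.7 kb past the end of Srsf5, a splicing factor gene. Its summed score was 1414 and 1530 in Ctrl against 2572 and 2074 in sKO. Vamp9 had 4 called of 5 tested, which lay 5.27 to 7.53 kb past Hnrnpd. In Snhg14, a long non-coding transcript of the imprinted Ube3a region, 4 of 10 tested peaks were called higher, 11.3 to 15.2 kb past Ube3a, and the widest apart scored 30.4 and 17.7 in Ctrl against 103 and 81.7 in sKO. The intronic peak of the retinoic acid receptor gene Rarb (chr14:16438212-16439788; 104 and 103 against 283 and 268; 1.40 ± 0.21, limma adjusted p = 4.3e-06) lay 2.75 kb past Top2b, and the intronic peak of Stk32a 8.27 kb past Dpysl3. The peaks of 2010111I01Rik (Aopep; 5 called of 44 tested) and of the lncRNA 5031425E22Rik (4 of 16) did not lie past a gene end within 10 kb.

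Other peaks called higher were named for their separation within a class of position. The widest in a gene body was at an intronic peak of the ubiquitin ligase gene Rnf125, 155607 bases past the nearest gene end, with 30.4 and 20.5 in Ctrl against 122 and 100.2 in sKO (2.10 ± 0.37, limma adjusted p = 0.00013). At gene ends, Ppp1r10, a subunit of a phosphatase complex that acts in transcription termination, scored 59.5 and 69.9 against 199.98 and 138, and 1700030K09Rik 36.4 and 36.4 against 74.5 and 85.2, which overlaps Cherp, and both were over 10 kb from a neighbour's end. The calpain gene Capn2 (36.4 and 51.3 against 102 and 96.7) lay 4284 bases past Trp53bp2. Each start peak named here lay past a neighbour too. Gm1113 (19.4 and 40.1 against 106 and 95.6) was 9827 bases past Cdon, Perm1 (24.3 and 42.9 against 85.0 and 79.4), a regulator of muscle mitochondria, 5570 bases past Plekhn1 and Dpp7 (20.6 and 50.3 against 85.8 and 87.5), a lysosomal peptidase gene, 2997 bases past Man1b1. Among lncRNA genes, a body peak of 1700112D23Rik (26.7 and 33.6 against 76.9 and 77.1) was 3298 bases past Slc2a2. At all of these the genotypes were apart.

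**Figure D4:**
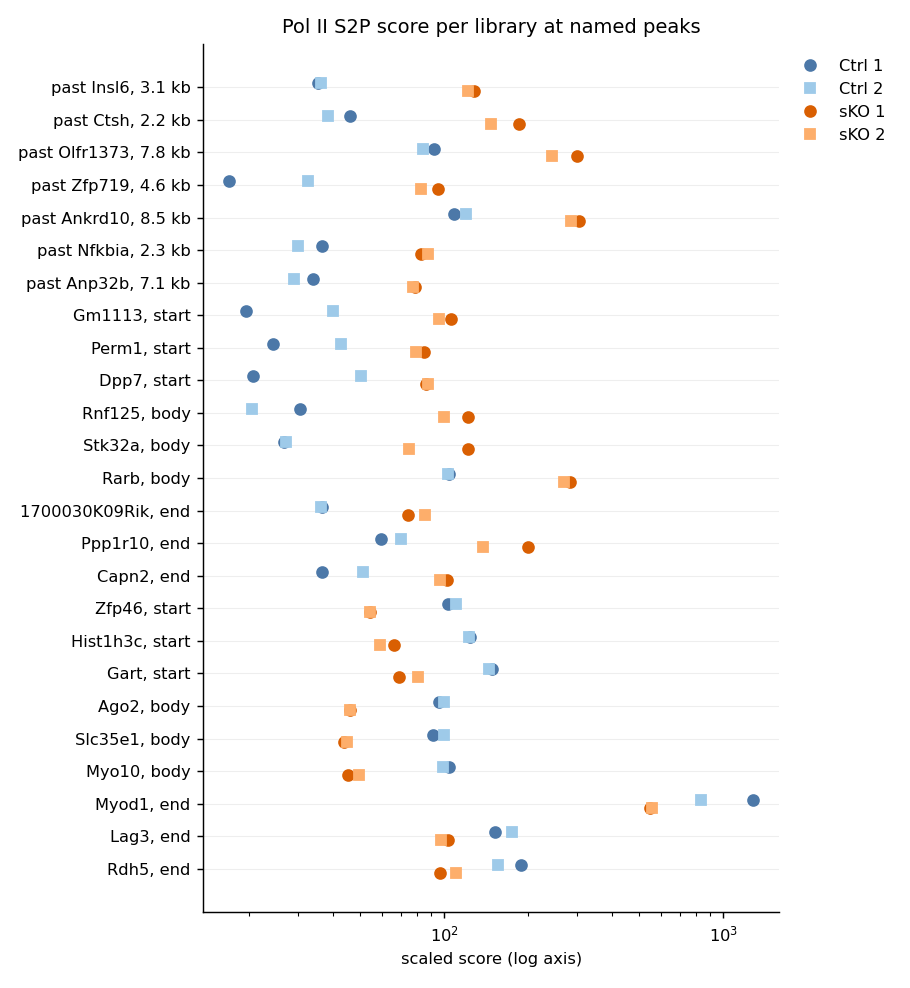
Scaled score (log axis) in each of the 4 libraries at 7 peaks past gene ends, with the distance past the named gene, and at the protein-coding start, body and end peaks with the widest gap in each direction. At every peak shown the 2 Ctrl libraries (blue) and 2 sKO libraries (orange) do not overlap.

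On the lower side, the genes of replication-dependent histones stood out. They are transcribed in S phase, lie in clusters and end in a stem-loop without a poly(A) tail. Of 35 tested peaks in this list, 12 were called lower (34.3%) and 0 higher, against 1.2% and 2.49% of all tested peaks. The median log2 fold change was -0.56 and 31 were below 0, against 53.5% of all tested peaks. Both sKO libraries lay below both Ctrl libraries at 26 of the 35, against 24.0% of all tested peaks. The 27 tested peaks of the chromosome 13 cluster held 11 of the calls and had a median of -0.66. Summed over the 46 peaks of the list, tested or not, the score was 5905 and 5088 in Ctrl against 3402 and 4061 in sKO. Without Ctrl replicate 1 the count called lower was 1, without sKO replicate 1 it was 4, and with no trend or on the deposited scale it was 0, while the median ran from -0.42 to -0.73 over all settings. At an unadjusted p under 0.05, 24 of the 35 peaks passed.

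The widest separation in the list was at a peak of Hist1h3c, a short H3 gene (chr13:23744196-23745033). It scored 124 and 123 in Ctrl against 66.4 and 58.7 in sKO (-0.97 ± 0.27, limma adjusted p = 0.026). This peak was classed as a start peak by its distance, but most of it lies past the gene end. The peak that covers the start of Hist1h3c (chr13:23745485-23746041) scored 112 and 67.1 in Ctrl against 57.5 and 82.9 in sKO. There the genotypes overlapped and the peak was not called (-0.32 ± 0.29, limma adjusted p = 0.67). Hist1h4i scored 277 and 263 against 115 and 167 (-0.96 ± 0.20, limma adjusted p = 0.0019), and Hist1h2bc, an H2B gene, 130 and 108 against 53.4 and 66.8. Outside chromosome 13 the call was Hist2h2bb (182 and 158 against 93.9 and 100.2). Hist3h2a on chromosome 11 scored 188 and 210 against 194 and 239, with overlap. Exons made up little of some called peaks: 0% at Hist1h2bc, 5.99% at Hist1h2bg and 7.28% at Hist1h3c. At Hist1h3d they made up 9.91% of the start peak and 0.112% of the end peak. In the other called peaks the share was 29.8% to 100%. The called peak of Hist1h2be scored 120.2 and 137 in Ctrl against 39.7 and 119.7 in sKO, so that sKO replicate 2 was close to Ctrl replicate 1. Histone genes are close copies of each other, and reads that match several copies were not kept by the authors, so that the scores count only uniquely placed reads.

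**Figure D5:**
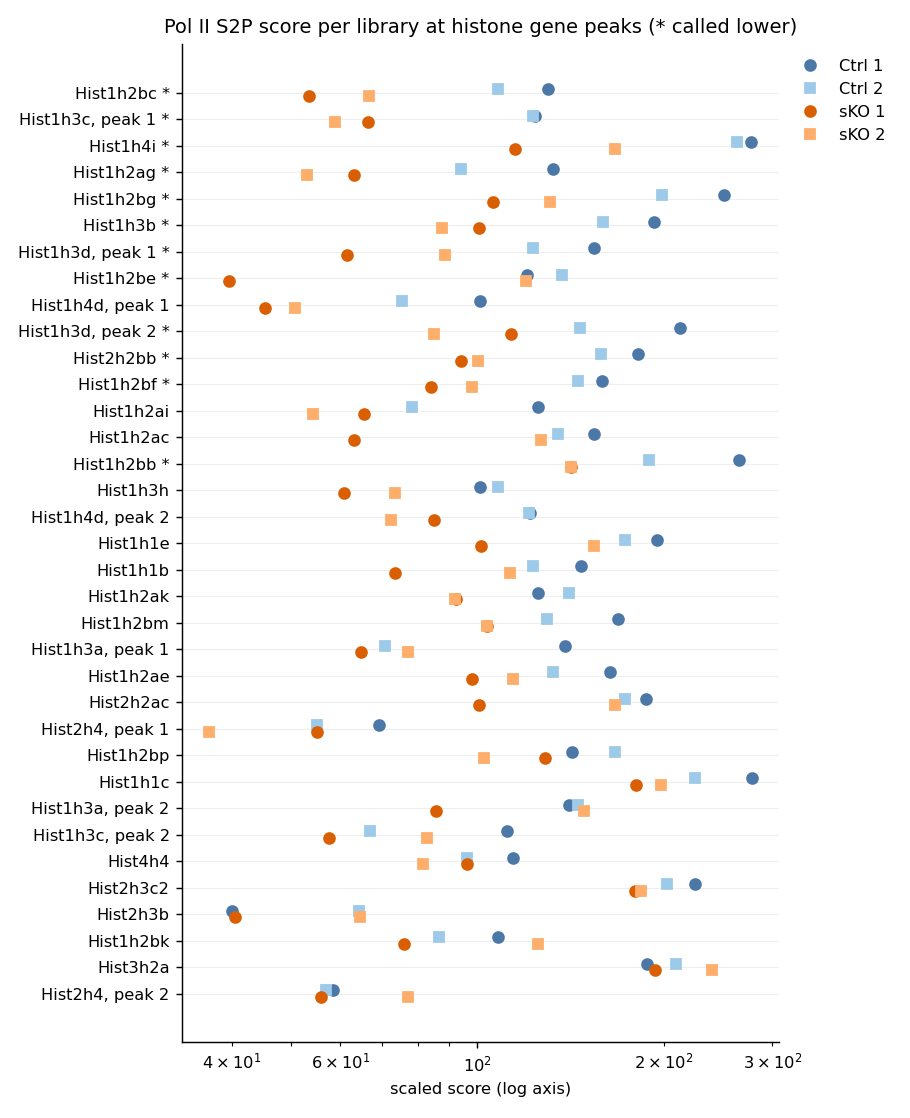
Scaled score (log axis) in each library at the 35 tested peaks of replication-dependent histone genes, ordered by log2 fold change, with an asterisk for the 12 called lower. Both sKO libraries (orange) are below both Ctrl libraries (blue) at 26 of the peaks, against 24.0% of all tested peaks.

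Other genes that serve DNA replication had called start peaks. Pcna, the sliding clamp of DNA polymerases, scored 273 and 275 in Ctrl against 178 and 176 in sKO (-0.63 ± 0.19, limma adjusted p = 0.053). Rrm2, a subunit of ribonucleotide reductase, scored 306 and 221 against 161 and 159 (-0.70 ± 0.20, limma adjusted p = 0.034). Gart, an enzyme of purine synthesis outside the list, scored 148 and 145 against 68.8 and 80.6. The list of cell cycle and replication genes had a median of -0.21 over 38 tested peaks. Of these, 2 were lower (5.26%) and 0 higher, against 1.2% and 2.49% of all tested peaks. With GC correction the median was -0.16 and 0 peaks of the list were called, as was so with no trend and on the deposited scale. The start peaks of Pcna and Rrm2 had a GC content of 59.9% and 60.1%, whose part in their change was not tested. Without Ctrl replicate 1 the median was -0.07. No peak of the list was called without Ctrl replicate 1 or without sKO replicate 1.

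The 37 tested peaks of myogenic factors had a median log2 fold change of -0.25, with 3 called lower and 0 higher, against 1.2% lower and 2.49% higher over all tested peaks. The count called lower was 1 with GC correction and without any 1 of Ctrl replicate 1, sKO replicate 1 and sKO replicate 2, and 0 with no trend or on the deposited scale. The peak that reaches from the end of Myod1 past the gene (chr7:46379014-46382113) scored 1280 and 832 in Ctrl against 545 and 558 in sKO (-0.90 ± 0.15, limma adjusted p = 4.1e-05). Its start peak scored 334 and 202 against 173 and 189 (-0.52 ± 0.20, limma adjusted p = 0.16). At Id3, the inhibitor of myogenic helix-loop-helix factors, the end peak scored 1387 and 1125 against 851 and 898, and the peak 3.05 kb past the gene, with the largest gap among the lower peaks with no listed gene, 149 and 145 against 68.0 and 52.96 (-1.28 ± 0.26, limma adjusted p = 0.0011). The Id3 region thus went against the general direction past gene ends. Chrna1, a subunit of the muscle acetylcholine receptor, scored 759 and 644 against 461 and 511 at its start.

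Pax7, which marks satellite cells, had 4 tested peaks and none was called, with sums over its 7 peaks of 333 and 332 in Ctrl against 287 and 382 in sKO. Myf5 had no listed peak. Cdh15, the gene of M-cadherin, also had none under its own name, since its peaks are listed with Gm20388 (deposited as Galnt2), a predicted read-through locus on chromosome 8. Of the 357 peaks of Gm20388, 181 were tested, and of these 8 were called lower and 3 higher. Of the lower ones, 3 lay in Cdh15. Near its start the scores were 192 and 170 in Ctrl against 62.3 and 105 in sKO, and at the following intronic peaks they were 696 and 610 against 466 and 394, then 231 and 283 against 161 and 182. The sKO libraries were below both Ctrl libraries at each.

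Contractile and cytoskeletal genes were mixed, and Zyx, Vim and Pfn1 are named after their values were seen. The troponin gene Tnnt1 (187 and 192 in Ctrl against 112 and 113 in sKO) and the tropomyosin gene Tpm1 (192 and 168 against 93.9 and 97.9) were called lower, and titin (Ttn) had a start peak called lower (197 and 191 against 120 and 125) and a body peak called higher (37.6 and 27.0 against 77.7 and 72.5), so that the sarcomere list held 1 higher and 3 lower of 90 tested peaks. The sarcomere shares were 1.11% higher and 3.33% lower, against 2.49% and 1.2% of all tested peaks. Among 136 peaks of cytoskeletal and adhesion genes, 2 were higher (1.47%), both in the integrin gene Itgb1, and 6 lower (4.41%). Of the lower ones Cnn3 (153 and 158 against 85.8 and 76.0) and Zyx (590 and 562 against 388 and 404) had replicates close together. Those of Vim (486 and 147 against 123 and 135) and Pfn1 (477 and 123 against 108 and 137) rested on Ctrl replicate 1. With no trend or on the deposited scale 0 peaks of either list were called. With GC correction 0 were higher and 3 lower in the sarcomere list, and 0 higher and 5 lower in the cytoskeletal list.

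Further genes with widely separated lower peaks were Ago2 (95.9 and 99.7 against 46.1 and 46.1), the effector of microRNAs, the phosphatase gene Ptprd (131 and 123 against 63.2 and 58.7), the transporter gene Slc35e1 (91.1 and 99.7 against 43.7 and 44.9), the motor gene Myo10 (104 and 98.8 against 45.3 and 49.5) and, at its start, the zinc finger gene Zfp46 (103 and 110 against 54.2 and 54.1). At gene ends they were Lag3 (152 and 175 against 104 and 97.9), 8884 bases past Ptms, and Rdh5 (188 and 157 against 96.3 and 110.5), 105 bases past Cd63. The peak of Slc35e1 lay 8225 bases past Med26 and that of Zfp46 9564 bases past Tcea3. Several peaks fell in Arhgef2, which encodes a guanine nucleotide exchange factor (4 called of 20 tested, sums of 3657 and 3110 against 2626 and 2587), in the glucosylceramide synthase gene Ugcg (3 of 17) and in the membrane-curvature gene Bin1 (3 of 17). Notch3, a Notch receptor of satellite cells, had 3 called lower, the widest apart with 110.5 and 127 against 45.3 and 77.1, in a list of 36 Notch pathway peaks with 0 higher. The share called lower in that list was 8.33%, against 1.2% lower and 2.49% higher over all tested peaks. Of lncRNA genes, Gm26640 scored 1393 and 1277 against 792 and 797 (-0.75 ± 0.13, limma adjusted p = 0.00021) at a peak 83 bases past the thymosin gene Tmsb10, and Gm31816 169 and 127 against 73.7 and 56.4. Among peaks with no listed gene, one at chr1:60825578-60826415 scored 211 and 189 against 107 and 109.

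The immediate early genes, which respond to stimulation within minutes, had a median of -0.28 over 32 tested peaks, 27 of them below 0 against 53.5% of all tested peaks, with 2 called lower, both in Klf6 (72.9 and 99.7 against 35.6 and 41.4, and 107 and 130 against 43.7 and 62.2). No peak of the list was called without Ctrl replicate 2, without sKO replicate 1, with no trend, on the deposited scale or with a mean over 100. Ribosomal protein genes had a median of -0.13 over 101 peaks with 1 call in each direction (Rpl11 higher, Rpl26 lower). Targets of p53 (19 tested peaks, median -0.08), elongation and termination factors (60, median -0.06) and senescence-associated secreted factors (14, median 0.04) had 0 calls by limma, with 3, 6 and 1 peaks at an unadjusted p under 0.05. The H4K20 methylation enzymes and readers had a median of -0.24 over 5 tested peaks with 0 calls and 1 at that p, and the genes named by the study a median of 0.00 over 22 with 0 calls and 1. Of zinc finger genes, 243 tested peaks held 1 higher (0.412%) and 3 lower (1.23%). Olfactory receptor genes had 5 tested peaks with 1 higher (Olfr1390), and the extracellular matrix genes 48 with 1 lower (Col1a2). For comparison with each of these lists, 2.49% of all tested peaks were called higher and 1.2% lower.

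Of the genes that the study discusses, several had no called peak of their own. Kmt5b itself had 2 small peaks, neither tested, with sums of 29.1 and 57.8 in Ctrl against 38.9 and 25.3 in sKO, and elongating polymerase in the gene is no check of the deletion. Rasa1 had 3 peaks under the filter (37.6 and 54.1 against 84.2 and 71.4 in sum, log2 ratio 0.76 without a test). Agap2 had 1 tested peak (126 and 150 against 113 and 108; -0.31 ± 0.23, limma adjusted p = 0.57) and Arid4b 1 (321 and 250 against 263 and 300.5; -0.01 ± 0.18, limma adjusted p = 0.99). Past gene ends, however, 2 of the 3 tested peaks past Rasa1 were called higher, 4.06 and 5.32 kb beyond the end and within Ccnh, and the 3 summed to 509 and 520 in Ctrl against 785 and 806 in sKO. Both tested peaks past Hmga2 were called higher (sums of 817 and 763 against 1350 and 1463), while its own tested peaks summed to 1372 and 1063 against 1228 and 1382. Past Foxo1, which the study also mentions, 2 of 3 were called higher (101 and 130 against 226 and 290.1). The genotypes were apart in these past-end sums. The 1 tested peak past Kmt5b and the 1 past Nf1 were not called.

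Markers of other cell types had few peaks. Fibro-adipogenic markers had 13 peaks in 3 of 6 genes, none in Pdgfra, Dcn or Lum, with sums of 1740 and 415 in Ctrl against 533 and 451 in sKO. Endothelial markers had 3 peaks (162 to 207 over the libraries, none in Cdh5, Kdr or Emcn), immune markers 3 (1009 to 1180, none in Ptprc or Adgre1), Schwann markers 3 (98.4 to 138) and mural markers 8 (628 to 899, none in Myh11). The high fibro-adipogenic sum in Ctrl replicate 1 came from Col1a1. None of these peaks was called by limma, and 3 of their 15 tested peaks had an unadjusted p under 0.05. Of the 4 tested fibro-adipogenic peaks 3 were below 0, whereas the own tested score of Col3a1 was 51.0 and 54.1 in Ctrl against 88.3 and 89.8 in sKO. Past the end of Col3a1, 2 of 6 tested peaks were called higher (sums of 781 and 934 against 1223 and 1247). Satellite cell and myoblast markers had 84 peaks in 8 of 10 genes, with sums of 10029 to 12226.

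The scaled H4K20me1 score, from separate libraries of the same genotypes, was read at the Pol II S2P peaks (each H4K20me1 library divided by its autosomal total, so that the genome-wide level is set aside). Of the peaks called higher, 70.5% overlapped an H4K20me1 peak, of those called lower 41.6% and of all tested 60.7%. At the 308 H4K20me1 peaks under higher calls the median score per kb was 47.2 and 45.2 in Ctrl against 40.3 and 39.7 in sKO. At the 104 under lower calls it was 33.4 and 30.5 in Ctrl against 39.3 and 39.2 in sKO. Per kb, the medians of the 2 sets were apart in Ctrl and close in sKO. Under all tested peaks the medians per kb were 36.3 and 34.5 in Ctrl against 40.1 and 39.6 in sKO. The sKO values were thus not particular to the called sets. The difference between the sets in median log2 H4K20me1 score, which is not divided by peak width, remained over 1 in every library and was 1.77 and 1.89 in Ctrl against 1.30 and 1.14 in sKO, a change of -0.61 (exact two-sided permutation p = 0.333 over 4 libraries, the smallest possible).

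When all tested Pol II S2P peaks inside H4K20me1 peaks were divided into 5 equal groups by the Ctrl H4K20me1 score per kb (2710 peaks each), the median log2 fold change of Pol II S2P was -0.09, -0.02, 0.03, 0.05 and 0.09 from the lowest to the highest group. The share called higher was 1.03%, 2.29%, 3.28%, 3.43% and 4.43%, and the share called lower 1.66%, 0.849%, 0.517%, 0.443% and 0.627%. Median GC content moved with it, from 51.6% to 45.5%. Between 45 and 50% GC the medians were -0.09, 0.03, 0.09, 0.09 and 0.11, and above 55% GC they were -0.14, -0.14, -0.12, -0.11 and -0.13, so that the order was not seen in GC-rich peaks. Peaks past gene ends had a median H4K20me1 score per kb of 41.7 and 40.8 in Ctrl against 39.7 and 39.3 in sKO, against 27.4 and 23.6 and then 40.5 and 40.3 at peaks far from genes.

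GC content also moved with genotype over all peaks. The median log2 fold change was 0.14 in peaks of up to 40% GC, 0.07 at 40 to 45%, 0.01 at 45 to 50%, -0.06 at 50 to 55%, -0.12 at 55 to 60% and -0.17 above 60%. Starts of protein-coding genes, with a median GC of 59.5%, lay on the same line as gene bodies of equal GC: between 55 and 60% the medians were -0.14 at starts and -0.12 in bodies, and between 60 and 65% -0.15 and -0.21. The lower share at gene starts therefore moved with GC content, whose part in it was not tested, whereas peaks with no listed gene were above bodies at equal GC (0.16 against 0.02 between 40 and 45%). Peaks in bodies or with no listed gene and over 75% soft-masked sequence had a median of 0.39, with 16 of 101 called higher and 0 lower.

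Chromosomes did not differ much as wholes. The log2 ratio of the share of the score, sKO over Ctrl, ran from -0.04 to 0.05 over the 19 autosomes.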

How the data were processed

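Per the labels and the study's methods, the authors trimmed reads with Trimmomatic 0.39, aligned them to GRCm38 with STAR 2.7.3a, removed duplicates with Picard 2.21.7 and normalised to Drosophila S2 spike-in. MACS2 2.1.1 and SICER 0.0.41 are listed as tools, but which of them called which peaks is not given in the sources used here. The deposited score is spike-in-normalised coverage summed per union peak and rounded to a whole number by the authors, not a read count, and is not divided by length. The deposited fraction of each peak in its gene was used for no result. The scores hold no read counts, so no counting interval is given, and precision rests on 2 libraries per genotype. The study lists more uniquely mapped reads for both sKO than for both Ctrl Pol II S2P libraries; its read totals were not used here, and the part of depth in the results was not tested. The 2 IgG libraries were not used here.

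Each Pol II S2P library was divided by its autosomal total and multiplied by the mean total. Peaks with a mean over 50 were tested on log2(scaled score + 1) with limma 3.58.1 (R 4.3.3, eBayes with a trend) and Benjamini-Hochberg adjustment. A fold change on this scale understates the change of low peaks. Tested on simulated data for this comparison (23236 peaks), 77 of 111 peaks changed by a log2 fold of 1 and 89 of 89 changed by 2 were recovered, with 16 false calls. The simulated spread depended on the level of a peak alone, as the trend in the fit assumes, and held no GC or library effects. These counts therefore do not measure the false calls in the real data. Gene names follow GENCODE M21, which held the gene of 37218 of 37256 listed peaks and gave another name than the deposited symbol for 1879 of 34535. Coordinates are as deposited. GC content, repeats and motifs came from the GRCm38 sequence (pysam 0.24.0), promoters from RefSeq.

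Called peaks were ranked by the gap between genotypes (lowest library of the higher genotype less the highest of the lower, log2). Named were the 3 widest protein-coding peaks per position and direction, 2 per direction for lncRNA genes and for peaks without a gene, the 5 genes per direction with most called peaks (at least 3), up to 2 called members of each of 23 lists, and 7 fixed genes. The members, lists and tests were chosen with earlier results of these data known. Replicate numbers did not pair the libraries (correlation of deviations -0.04).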

Additional observations from a re-analysis of the deposited data

How the results depend on the processing

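Across 15 alternatives, no peak was called in the direction opposite to the one reported, and no peak named by the rule changed sign where it was still tested. Without Ctrl replicate 1, the largest Fth1 peak fell under the filter and its log2 fold change turned from -2.25 to 0.69. Many of the 88 named peaks lost their call: 84 on the deposited scale, 85 with no trend, 47 with replicate block and GC correction together, 58 of 86 still tested without Ctrl replicate 1, 23 of 87 without Ctrl replicate 2, 47 of 75 without sKO replicate 1 and 32 of 85 without sKO replicate 2, and 0 to 20 under the other settings. The count of peaks called higher (556) was 10 on the deposited scale, 3 with no trend and 211 with replicate block and GC correction together, and 128 to 763 when 1 library was left out. The count called lower (267) was 1, 0 and 63 under the same settings, 168 with median-of-ratios scaling, 164 with quantile normalisation and 16 to 426 when 1 library was left out. The cause of these differences was not tested. The replicate numbers did not pair the libraries (correlation of deviations -0.04), and the replicate block alone gave 524 and 220 calls, 519 and 216 of them shared. GC correction alone gave 409 and 202.

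Leaving out 1 library gave differences (sKO minus Ctrl, percentage points) of -1.75 to -1.24 for gene starts, -0.93 to 0.16 for gene bodies (above 0 without Ctrl replicate 2), 0.09 to 0.54 for gene ends, -0.31 to 0.15 for lncRNA genes (above 0 without Ctrl replicate 1), 1.42 to 1.86 for peaks with no listed gene, 1.28 to 1.89 past gene ends, 0.08 to 0.12 before gene starts and -0.15 to 0.0576 for peaks far from genes (above 0 without Ctrl replicate 1 and without sKO replicate 1). The last was 0.55 with a limit of 5 kb, which moves peaks 5 to 10 kb past gene ends into it. The settings for places around genes and for ratios within genes were chosen after seeing the data. The past-end ratio ran from 0.16 to 0.24, the body to start ratio from 0.15 to 0.17 and the H4K20me1 difference from -0.68 to -0.53. With 2 libraries per genotype, changes at peaks near the filter are the least certain.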
